A study of Mus musculus with 15 samples.

Results

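The synaptic vesicle and exocytosis genes are 37 genes whose proteins store transmitter vesicles, bring them to the plasma membrane and fuse them with it. They were chosen by name from the 17090 genes of the deposited count table, and all 37 were found there. Enteric neural crest-derived cells (ENCDC), the migrating precursors that form the neurons and glia of the bowel, were sorted by fluorescence from single mouse organs of mixed genetic background, and their RNA was sequenced. In E11.5 stomach, 4 libraries came from RarαDN-expressing ENCDC of RarαDN LoxP/+; Wnt1Cre; ROSA26TdTomato embryos and 4 from control ENCDC of Wnt1Cre; ROSA26TdTomato embryos. In E13.5 colon, 3 libraries came from RarαDN-expressing ENCDC of RarαDN LoxP/+; RETCreERT2EYFPTandem embryos and 4 from control ENCDC of RETCreERT2EYFPTandem embryos, and both groups had been exposed to tamoxifen at E10.5. RarαDN is a mutant RARα, a nuclear receptor for retinoic acid, that acts as a dominant negative once Cre switches it on and blocks transcription driven by retinoic acid.

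Wnt1Cre acts in nearly all neural crest from its start and also in the central nervous system, whereas RETCreERT2 acts only after tamoxifen and only in cells that express Ret. Age, organ, Cre driver and reporter all differ between the E11.5 and the E13.5 libraries, so their parts cannot be told apart. A further E13.5 RarαDN sample failed the quality control of the study and was not analysed here. The libraries held between 6065029 and 12121327 counts. Of the markers of enteric neurons, such as Elavl4 and Ret, all 11 had counts in both groups at both ages, as did the 8 markers of enteric progenitors or glia, except that at E13.5 Tfap2b had 0 counts in RarαDN ENCDC and S100b had 0 counts in control ENCDC. Several neuron markers were close to 0 in E11.5 RarαDN ENCDC, with 2 counts for Elavl3, 5 for Prph and 6 for Stmn2, against 391, 875 and 2828 counts in control ENCDC. Ret spanned 0.117 to 235 CPM in E11.5 RarαDN ENCDC, against 442 to 1811 CPM in control ENCDC (CPM, counts scaled to a library of fixed size).

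A synaptic vesicle is filled with transmitter, tethered near the active zone, docked by Rab3 and RIM proteins and primed by Munc13. Fusion is carried out when the vesicle SNARE VAMP zips together with syntaxin and SNAP-25 of the plasma membrane, and synaptotagmin triggers it when calcium enters. In the developing bowel these genes are known as products of cells that are becoming neurons, and several of them also serve the secretory granules and lysosome-like organelles of other cells.

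Many neuronal genes carry an RE1 element, the binding sequence of the repressor REST, which keeps neuronal genes low outside neurons, and genes under direct control of retinoic acid receptors often carry a direct repeat of a short receptor site. Promoter windows from 250 bases before to 50 bases after the start site were taken from RefSeq (GRCm38.p6) for 29 of the 37 members. The others were Syt4, Syt7, Syt13, Snap25, Vamp2, Svop, Rims2 and Syngr3. Both strands were searched. The left arm of RE1, TCAGCACC, was in the windows of Syn1 and Unc13a and in 1.85% of all genes' windows. The right arm of RE1, GGACAGCG, was in the windows of Syt6 and Unc13a and in 1.48% of all genes' windows. Unc13a thus held both arms, as did 0.0444% of all genes. The search set no spacing or order between the arms, so holding both does not show a whole RE1 element. The cyclic AMP response element TGACGTCA was in the window of Syn1 and in 2.03% of all genes' windows. The E box CAGATGG was in the windows of Cadps, Rims3 and Snap91 and in 6.02% of all genes' windows. The retinoic acid response elements DR5 (0.115% of all genes) and DR2 (0.311%) were in none of the 29. The motifs that are spelled out do not overlap one another, and DR5 and DR2 are built from the same receptor site. A window is printed for each of the 3 genes with an RE1 arm (Syt6 has a second, overlapping window that holds the same match). In all 3 genes every RarαDN library lay below every control library at E11.5, as in 20 of the 37 members. Of the 3, only Syt6 passed the E11.5 test given below, while Unc13a did not pass and Syn1 was too low to be tested. Capitals mark the RE1 arms and, in Syn1, also the cyclic AMP response element, and the reverse complement of an arm is printed where the match lay on the other strand.
Syn1 promoter, GRCm38.p6, chrX:20920869-20921168, - strand: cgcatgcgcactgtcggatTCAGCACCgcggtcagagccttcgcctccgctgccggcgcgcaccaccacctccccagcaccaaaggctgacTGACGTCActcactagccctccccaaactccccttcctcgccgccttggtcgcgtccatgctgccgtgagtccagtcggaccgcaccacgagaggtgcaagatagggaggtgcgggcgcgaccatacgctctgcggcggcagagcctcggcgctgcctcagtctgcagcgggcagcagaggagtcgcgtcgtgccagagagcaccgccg
Unc13a promoter, GRCm38.p6, chr8:71671708-71672007, - strand: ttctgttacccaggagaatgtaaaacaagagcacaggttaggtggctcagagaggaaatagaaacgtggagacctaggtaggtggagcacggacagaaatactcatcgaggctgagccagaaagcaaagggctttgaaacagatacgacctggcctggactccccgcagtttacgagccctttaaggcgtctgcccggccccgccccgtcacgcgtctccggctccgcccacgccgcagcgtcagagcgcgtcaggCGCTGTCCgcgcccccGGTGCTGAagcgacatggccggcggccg
Syt6 promoter, GRCm38.p6, chr3:103574995-103575294, + strand: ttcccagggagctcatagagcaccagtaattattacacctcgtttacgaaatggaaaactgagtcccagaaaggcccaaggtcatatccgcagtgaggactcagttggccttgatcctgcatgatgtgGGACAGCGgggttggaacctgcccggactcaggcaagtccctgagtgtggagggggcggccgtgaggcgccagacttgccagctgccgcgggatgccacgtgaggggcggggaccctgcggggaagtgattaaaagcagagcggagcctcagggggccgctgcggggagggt
A match of this kind is a description of the letters and shows no binding.

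At E11.5 the RarαDN-expressing ENCDC carried less RNA of a large share of these genes, and for 10 members not 1 count was found in any of the 4 RarαDN libraries. Of these 10, Syt2, Sncb, Sv2b and Sv2c had only 1, 1, 5 and 12 counts in control ENCDC. RarαDN libraries also held fewer genes in all, 12510 to 13221 with a count against 14559 to 14870 in control libraries. How many of all genes were at 0 in every RarαDN library was not counted. By edgeR's quasi-likelihood test, with P values adjusted by Benjamini-Hochberg over all 12427 genes tested, 9 members fell and 1 rose at an adjusted p under 0.05. The background was 2.93% of all genes lower and 3.07% higher. These 364 and 381 genes became 134 and 190 without control library 1, 161 and 190 without control library 3, 148 and 215 without control library 4, and 556 and 587 without RarαDN library 1. Of the 37 members, 29 passed the filter on low counts and could be tested, 19 of them did not pass the test, and 8 were too low to be tested (Syt2, Syt3, Syt13, Syn1, Sv2b, Sv2c, Rims2 and Sncb). In 20 of the 37 members every RarαDN library lay below every control library, and in 1 every RarαDN library lay above, against a background of 8.96% and 6.71% of all genes tested. The 2 sets are not alike, since the 37 include untested members, of which Syn1, Sv2c and Rims2 are among the 20. The median log2 fold change of the tested members was -2.07, beside -0.05 for all genes tested. It was the same with members at 0 counts set at their bound, as it had to be, because they lie below the median either way. A member that is high only in control ENCDC passes such a filter through the control libraries, so these shares describe the list and were not used as a test of it. Because these are bulk libraries, fewer cells of a type and less RNA per cell cannot be told apart.

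**Figure D1:**
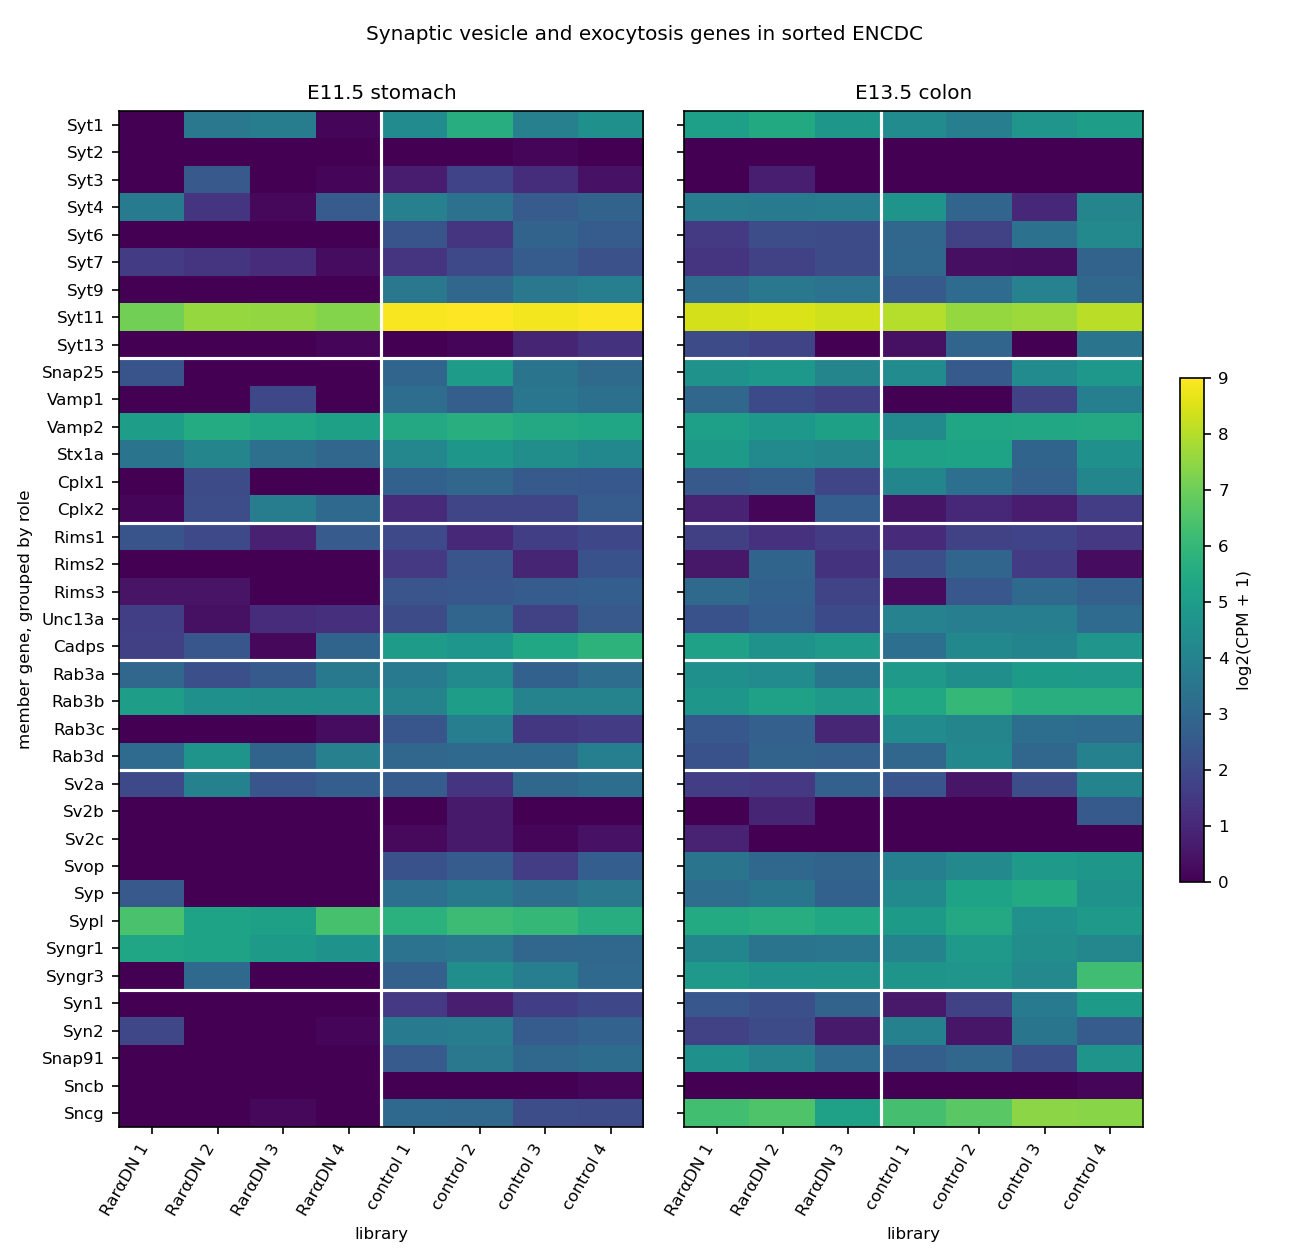
Level of each member (rows, grouped by role from calcium sensors at the top to vesicle-associated cytosolic proteins at the bottom) in each library (columns, RarαDN left of control), as log2(CPM + 1), where CPM is counts scaled to a library of fixed size (TMM). At E11.5 the RarαDN columns are at 0 for 10 members, and Syt11 has the highest CPM of the members in every library (levels are not per length).

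The synaptotagmins are grouped here as calcium sensors, although not all of them bind calcium, and Syt11 had the most counts of all members. Syt11, a synaptotagmin that does not bind calcium and is known to restrain the retrieval of vesicle membrane, had 134, 191, 187 and 160 CPM in RarαDN libraries 1 to 4, against 482, 508, 463 and 496 CPM in control libraries 1 to 4. The RarαDN libraries all lay far below the control libraries, with little spread in either group. Syt11 fell by 1.54 on the log2 scale (SE 0.17, adjusted p = 0.000483). It passed under each of the 19 alternatives tried, with adjusted p between 6.99e-15 and 0.00591.

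Syt9, a fast calcium sensor of vesicle release in some neurons and endocrine cells, had 0 counts in all 4 RarαDN libraries, against 11.1, 6.91, 11.2 and 13.3 CPM in the control libraries. All control libraries thus held it and no RarαDN library did. Set against a floor of 3 counts over the 4 RarαDN libraries (0.0788 CPM), Syt9 was at least 135-fold lower in RarαDN ENCDC (adjusted p = 0.0025), and it passed under each of the 19 alternatives.

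Syt6, a synaptotagmin best known for the fusion of the sperm acrosome, also had 0 counts in every RarαDN library, against 4.01, 1.59, 6.23 and 5.13 CPM in the control libraries. The groups did not overlap, and the level was at least 53.8-fold lower in RarαDN ENCDC (adjusted p = 0.0122). The adjusted p was 0.0544, 0.0569 and 0.0549 without control library 1, 3 or 4.

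Syt1, the fast calcium sensor of most synapses, split the RarαDN libraries, which held 0, 11.2, 13.2 and 0.117 CPM, against 19.3, 47.8, 14.2 and 21.6 CPM in control libraries. The groups did not overlap, yet libraries 1 and 4 were near 0 while libraries 2 and 3 came close to the lowest control library. The log2 fold change was -2.07 (SE 1.19, adjusted p = 0.382). Syt4, which lacks calcium binding in 1 of its domains, spanned 0.153 to 12.5 CPM in RarαDN ENCDC and 4.96 to 14.1 CPM in control ENCDC, and Syt7, a slow sensor of high calcium affinity, spanned 0.235 to 1.97 CPM and 1.55 to 5.07 CPM in the same groups. Neither passed (adjusted p = 0.684 for Syt4 and 0.419 for Syt7). Syt3, Syt13 and Syt2 were at most 4.68 CPM in any E11.5 library, and Syt2 had 1 count in all.

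Among the SNARE proteins and the complexins that bind them, no member passed the test at E11.5, and counts were spread unevenly over the RarαDN libraries. Snap25, the plasma membrane SNARE of neurons, had 4.04, 0, 0 and 0 CPM in RarαDN libraries 1 to 4, against 6.74, 30.2, 9.92 and 7.70 CPM in control libraries. The RarαDN libraries 2, 3 and 4 had no Snap25 count, and all 43 counts of the group were in library 1. The log2 fold change was -3.71 (SE 1.46, adjusted p = 0.19), and without RarαDN library 1 the adjusted p was 0.00411.

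Vamp1, a vesicle SNARE, was found only in RarαDN library 3, at 2.91 CPM and 19 counts, against 8.20, 5.55, 10.49 and 8.98 CPM in the control libraries. Its log2 fold change was -3.58 (SE 1.49, adjusted p = 0.213), and the adjusted p was 0.00599 without that library and 0.0229 with limma-voom. Cplx1, a complexin that clamps and then promotes fusion, was found only in RarαDN library 2, at 3.23 CPM and 40 counts, against 4.58 to 6.91 CPM in control ENCDC. It gave a log2 fold change of -2.71 (SE 1.44, adjusted p = 0.341), and an adjusted p of 0.00862 without library 2 and 0.0384 with limma-voom.

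Stx1a, the syntaxin of the plasma membrane, had 10.05, 15.98, 8.89 and 6.80 CPM in the RarαDN libraries, against 16.9, 26.5, 20.6 and 17.2 CPM in control libraries. Every RarαDN library was below every control library, by a narrow gap (log2 fold change -0.96, SE 0.39, adjusted p = 0.208). Vamp2, the main vesicle SNARE of neurons, which many secretory cells also use, differed little, with 32.4, 45.9, 37.7 and 33.6 CPM in RarαDN ENCDC, against 42.0, 48.6, 42.2 and 38.1 CPM in control ENCDC (log2 fold change -0.19, SE 0.24, adjusted p = 0.733). Cplx2, the complexin also found outside neurons, spanned 0.0939 to 12.9 CPM in RarαDN ENCDC and 1.09 to 5.13 CPM in control ENCDC. The members of the fusion machine thus did not share 1 pattern: Vamp2 overlapped between groups, while Snap25, Vamp1 and Cplx1 were each found in a single RarαDN library.

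The docking and priming proteins held 2 members that fell. Cadps (CAPS-1), which primes dense core vesicles, had 2.25, 4.28, 0.153 and 6.45 CPM in the RarαDN libraries, against 29.5, 25.2, 40.6 and 54.8 CPM in control libraries. No RarαDN library came near the lowest control library. Cadps fell by 3.5 on the log2 scale (SE 0.73, adjusted p = 0.0171), and the adjusted p was 0.0564 without control library 3 and 0.0634 without control library 4.

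Rims3, a short RIM protein that keeps only a C-terminal membrane-binding domain, had 0.376, 0.404, 0 and 0 CPM in RarαDN ENCDC, against 4.19, 4.42, 5.19 and 5.41 CPM in control ENCDC. Only 9 counts were found in all RarαDN libraries together, and the groups were well apart. Rims3 fell by 4.43 on the log2 scale (SE 1.09, adjusted p = 0.0376). This call was among the least stable of the list, with adjusted p of 0.0508 and 0.0517 without RarαDN library 3 or 4, and of 0.121, 0.0804, 0.13 and 0.138 without control library 1, 2, 3 or 4.

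Unc13a (Munc13-1), the priming factor of most synapses, had 2.16, 0.323, 1.23 and 1.29 CPM in RarαDN libraries, against 3.19, 6.68, 2.31 and 4.77 CPM in control libraries. All RarαDN libraries lay below all control libraries, but the test was not passed (log2 fold change -1.75, SE 0.82, adjusted p = 0.269). Rims2, a large RIM scaffold, had 0 counts in RarαDN ENCDC, against 1.82, 4.19, 0.922 and 3.85 CPM (107 counts) in control ENCDC, at least 34.2-fold lower in RarαDN ENCDC, although it was too low there to be tested. Rims1, its close relative, overlapped, with 0.766 to 4.93 CPM in RarαDN ENCDC and 1.02 to 2.92 CPM in control ENCDC.

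Of the 4 Rab3 GTPases, which sit on vesicles that are ready for docking, only Rab3c passed. It had 0, 0, 0 and 0.235 CPM in RarαDN ENCDC, against 4.37, 13.5, 1.73 and 1.93 CPM in control ENCDC. Its 2 counts in RarαDN libraries, against 203 in control libraries, gave a level 98.1-fold lower in RarαDN ENCDC (95% exact interval 26.8 to 816, counting error only). The adjusted p was 0.0228, but control library 2 held the highest level, and leaving out RarαDN library 3 or control library 1, 2, 3 or 4 gave 0.0504, 0.0728, 0.0771, 0.054 and 0.0531. Rab3a, the main form in neurons, Rab3b, found in neurons and endocrine cells, and Rab3d, mostly known from exocrine cells, overlapped between groups. Rab3a ranged from 3.63 to 11.5 CPM in RarαDN ENCDC and from 5.88 to 18.8 CPM in control ENCDC, Rab3b from 20.4 to 31.5 and from 15.2 to 31.5 CPM, and Rab3d from 6.44 to 24.3 and from 6.83 to 13.9 CPM in the same groups.

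Among the vesicle membrane proteins, 1 fell and 1 rose. Svop, a transporter-like protein related to SV2, had 0 counts in RarαDN ENCDC, against 3.83, 5.21, 2.08 and 5.50 CPM in the control libraries. The RarαDN level was at least 52.7-fold lower (adjusted p = 0.0111), with adjusted p of 0.0525 and 0.0538 without control library 1 or 4. Syngr1, a synaptogyrin of small vesicles in neurons and other cells, went the other way, with 39.5, 36.3, 29.3 and 23.9 CPM in RarαDN ENCDC, against 9.66, 11.2, 6.80 and 7.24 CPM in control ENCDC. Each RarαDN library stood well above the highest control library. Syngr1 rose by 1.89 on the log2 scale (SE 0.34, adjusted p = 0.0095) and passed under each of the 19 alternatives, with adjusted p up to 0.0479.

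Syp (synaptophysin), the most used marker of synaptic vesicles, had 4.69, 0, 0 and 0 CPM in RarαDN ENCDC, against 8.65, 11.4, 8.30 and 10.8 CPM in control ENCDC. As for Snap25, all counts of the RarαDN group, 50 in number, came from library 1. The log2 fold change was -3.02 (SE 1.45, adjusted p = 0.284), and without that library the adjusted p was 0.00174 (0.0247 with limma-voom and all libraries). Syngr3, the synaptogyrin most restricted to neurons, had all its 92 RarαDN counts in library 2, at 7.43 CPM, against 5.83, 20.9, 13.3 and 7.43 CPM in control libraries. Its groups overlapped through that library alone, with a log2 fold change of -2.63 (SE 1.49, adjusted p = 0.376) and an adjusted p of 0.00584 without it. Sypl, the synaptophysin relative of non-neuronal tissues, was even between groups, at 33.9 to 84.3 CPM in RarαDN ENCDC and 47.6 to 71.7 CPM in control ENCDC. Sv2a, a vesicle glycoprotein that binds synaptotagmin, overlapped, at 3.00 to 14.4 CPM in RarαDN ENCDC and 1.59 to 8.43 CPM in control ENCDC. Its relatives Sv2b and Sv2c had 0 counts in RarαDN ENCDC and only 5 and 12 counts in control ENCDC.

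Of the vesicle-associated cytosolic proteins, Snap91 and Sncg fell. Snap91 (AP180), which assembles clathrin where vesicle membrane is retrieved, had 0 counts in RarαDN ENCDC, against 5.01, 11.2, 7.15 and 8.07 CPM in control libraries. It was at least 99.8-fold lower in RarαDN ENCDC (adjusted p = 0.0049). Sncg (γ-synuclein), a membrane-binding protein abundant in peripheral neurons, had 0, 0, 0.153 and 0 CPM in RarαDN ENCDC, against 7.47, 7.02, 3.34 and 3.30 CPM in control ENCDC. The single RarαDN count, against 209 control counts, gave a level 202-fold lower (95% exact interval 35.9 to 8019, counting error only, adjusted p = 0.00794), and both genes passed with each library left out in turn.

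The synapsins, which tie vesicles into clusters, were low at E11.5. Syn1 had 0 counts in RarαDN ENCDC, against 1.82, 0.679, 2.19 and 2.84 CPM (76 counts) in control ENCDC, at least 23.9-fold lower in RarαDN ENCDC, and was too low to be tested. Syn2 had 2.82, 0, 0 and 0.117 CPM in RarαDN ENCDC, against 12.5, 12.9, 5.07 and 6.05 CPM in control ENCDC. Here too RarαDN library 1 held 30 of the 31 RarαDN counts (log2 fold change -3.58, SE 1.34, adjusted p = 0.165), and the adjusted p was 0.00348 without it, 0.0404 with DESeq2 and 0.0399 with limma-voom. Sncb (β-synuclein) had 0 counts in RarαDN ENCDC and 1 in control ENCDC.

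**Figure D2:**
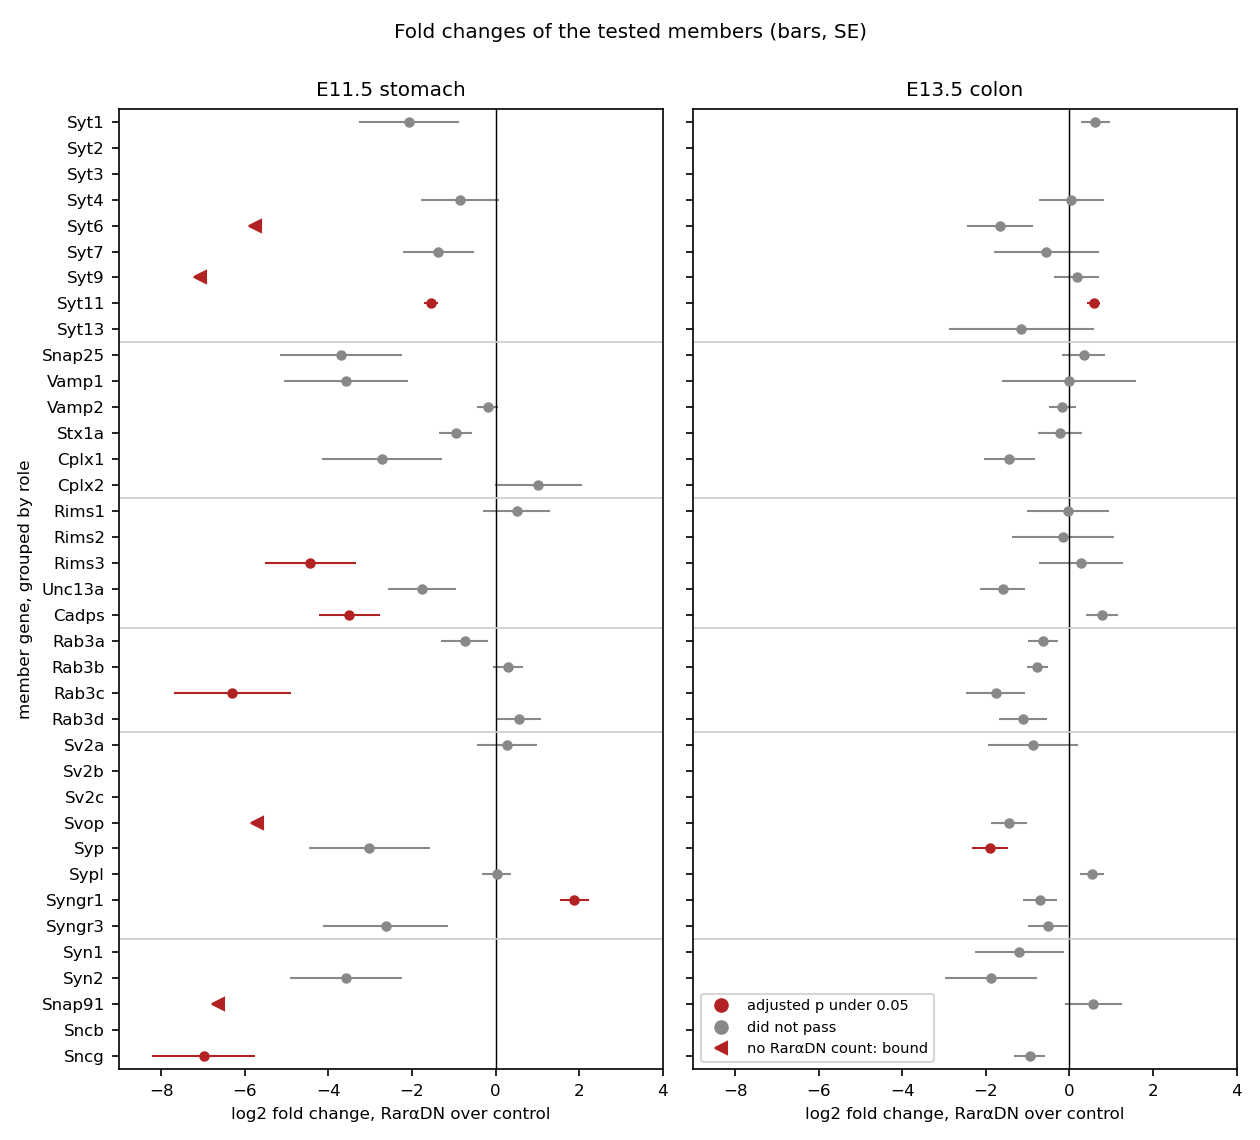
Log2 fold change of each tested member, RarαDN over control, with its SE, at E11.5 (left) and E13.5 (right), grouped by role. Red marks an adjusted p under 0.05, triangles mark the 4 tested members with no RarαDN count at their bound, and members without a point were too low to be tested. At E11.5 there are 9 red marks below 0 and 1 above, and at E13.5 there is 1 on each side.

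At E13.5 the colon ENCDC expressed nearly all members in both groups, and few differed. All but Syt2 were found in at least 1 library, 31 members were tested, 1 fell and 1 rose, and 29 did not pass. The background was 5.55% of the 12085 genes tested lower and 2.78% higher. These 671 and 336 genes became 19 and 6 without RarαDN library 1, 32 and 12 without RarαDN library 2, 226 and 98 without RarαDN library 3, 142 and 70 without control libraries 2 and 3, and 141 and 53 with each library's trend with transcript length removed. In 7 of the 37 members every RarαDN library lay below every control library and in 1 every RarαDN library lay above, all of them among the 31 tested, beside 13.3% and 12.7% of all genes tested. The median log2 fold change of the tested members was -0.55, against 0.06 for all genes tested.

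Syp had 8.28, 10.3 and 5.90 CPM in RarαDN libraries 1 to 3, against 18.5, 36.4, 43.9 and 23.4 CPM in control libraries 1 to 4. All RarαDN libraries were below all control libraries. Syp fell by 1.90 on the log2 scale (SE 0.43, adjusted p = 0.0246). The call was lost without RarαDN library 1, 2 or 3 (adjusted p = 0.116, 0.0743 and 0.0989) and without control library 2 or 3 (0.0505 and 0.069). The 2 highest Syp levels were in control libraries 2 and 3, the libraries with most hemoglobin RNA, and without both of them the log2 fold change was -1.34 and the adjusted p 0.153.

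Syt11 had 344, 356 and 325 CPM in RarαDN libraries, against 252, 191, 202 and 268 CPM in control libraries, so that every RarαDN library stood above every control library, opposite to E11.5. It rose by 0.58 on the log2 scale (SE 0.15, adjusted p = 0.0426). The call was lost without RarαDN library 1, 2 or 3 (adjusted p = 0.166, 0.155 and 0.102), without control library 2 or 3 (0.0902 and 0.105), and in 1 fit of all 4 groups (0.0545). With the trend of each library with transcript length removed, the log2 fold change was 0.21 and the adjusted p 0.432.

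Svop had 10.03, 7.31 and 6.37 CPM in RarαDN ENCDC, against 13.7, 17.9, 28.4 and 26.2 CPM in control ENCDC. The groups were apart but the test was narrowly missed (log2 fold change -1.45, SE 0.43, adjusted p = 0.0674), and it was passed without control library 1 (0.039) and with DESeq2 (0.0147). Unc13a had 3.82, 5.40 and 3.09 CPM in RarαDN ENCDC, against 14.8, 13.6, 13.5 and 7.92 CPM in control ENCDC. It too was lower in every RarαDN library (log2 fold change -1.60, SE 0.53, adjusted p = 0.0972, and 0.0284 with DESeq2).

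The Rab3 GTPases lay on the same side at E13.5. Rab3b had 26.3, 34.9 and 27.2 CPM in RarαDN ENCDC, against 40.0, 62.5, 49.2 and 48.9 CPM in control ENCDC (log2 fold change -0.77, SE 0.26, adjusted p = 0.0982, and 0.0438 with DESeq2). Rab3c had 4.62, 5.85 and 0.936 CPM in RarαDN ENCDC, against 19.4, 15.96, 8.55 and 7.80 CPM in control ENCDC (log2 fold change -1.77, SE 0.71, adjusted p = 0.164). Rab3d did not overlap either, at 3.82 to 6.30 CPM in RarαDN ENCDC and 6.78 to 17.5 CPM in control ENCDC, while Rab3a overlapped narrowly, at 10.2 to 21.8 and 21.5 to 29.1 CPM in the same groups. None of the 4 passed in the main test.

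Snap91 and Syt9, with 0 counts in the E11.5 RarαDN libraries, Sncg, with 1 count, and Cadps, which had fallen there, all had counts in every RarαDN library at E13.5. Snap91 had 22.0, 15.3 and 7.96 CPM in RarαDN ENCDC, against 5.55, 6.86, 3.55 and 24.5 CPM in control ENCDC, and Syt9 had 8.28, 11.2 and 9.64 CPM, against 4.83, 7.76, 14.9 and 7.19 CPM in the same groups. Both overlapped between the groups (log2 fold change 0.57 with SE 0.69 for Snap91, and 0.17 with SE 0.54 for Syt9). Cadps had 34.2, 23.5 and 28.2 CPM in RarαDN ENCDC, against 8.84, 17.6, 15.6 and 24.9 CPM in control ENCDC, which overlapped through control library 4 (log2 fold change 0.77, SE 0.39, adjusted p = 0.264). Sncg had 77.2, 91.3 and 34.5 CPM in RarαDN ENCDC, against 80.8, 102, 174 and 168 CPM in control ENCDC. Only RarαDN library 2 reached into the control range (log2 fold change -0.96, SE 0.37, adjusted p = 0.145, and 0.042 with DESeq2).

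Further members at 0 or near 0 in the E11.5 RarαDN libraries were also found at E13.5. Syt6 had 1.91, 3.37 and 3.28 CPM in RarαDN ENCDC, against 6.78, 2.39, 9.20 and 18.04 CPM in control ENCDC, overlapping through control library 2 (log2 fold change -1.67, SE 0.78, adjusted p = 0.23). Rims3 had 7.64, 5.96 and 2.62 CPM in RarαDN ENCDC, against 0.206, 4.47, 7.50 and 5.73 CPM in control ENCDC. Rims2 had 0.477, 6.41 and 1.498 CPM in RarαDN ENCDC, against 3.60, 6.71, 1.97 and 0.244 CPM in control ENCDC. Rims3 and Rims2 thus had counts in every E13.5 library of both groups, and for both the groups overlapped. Syn1 had 4.46, 3.60 and 6.27 CPM in RarαDN ENCDC, against 0.514, 2.39, 12.2 and 29.02 CPM in control ENCDC, so that the RarαDN libraries lay within the range of the control libraries (adjusted p = 0.557).

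Snap25 spanned 16.3 to 26.8 CPM in RarαDN ENCDC and 4.92 to 26.6 CPM in control ENCDC, and Syt1 spanned 26.4 to 43.3 CPM and 13.3 to 31.1 CPM. Both had been near 0 in some E11.5 RarαDN libraries. Cplx1 did not overlap, at 2.72 to 5.62 CPM in RarαDN ENCDC and 5.79 to 16.5 CPM in control ENCDC, and did not pass (adjusted p = 0.179). Syngr1 had 16.7, 10.1 and 10.49 CPM in RarαDN ENCDC, against 15.3, 28.04, 21.04 and 16.8 CPM in control ENCDC, and overlapped through RarαDN library 1 (log2 fold change -0.71, SE 0.40, adjusted p = 0.319). The other tested members overlapped as well. Among the SNARE proteins, Vamp1 spanned 2.25 to 6.84 CPM in RarαDN ENCDC and 0 to 13.9 CPM in control ENCDC, Vamp2 27.1 to 33.4 and 18.9 to 42.1 CPM, and Stx1a 16.2 to 28.97 and 6.44 to 36.5 CPM in the same groups. Of the synaptotagmins, Syt4 spanned 11.9 to 12.7 CPM in RarαDN ENCDC and 1.05 to 24.3 CPM in control ENCDC, Syt7 1.59 to 3.18 and 0.263 to 7.20 CPM, and Syt13 0 to 3.18 and 0 to 10.1 CPM. In each of these 6 the RarαDN range lay within the control range. Of the rest, Syngr3 spanned 22.9 to 28.3 CPM in RarαDN ENCDC and 18.02 to 75.5 CPM in control ENCDC, Sypl 39.7 to 47.3 and 22.2 to 42.2 CPM, Sv2a 1.80 to 5.81 and 0.447 to 15.7 CPM, Syn2 0.562 to 3.26 and 0.447 to 14.4 CPM, and Rims1 1.46 to 2.23 and 1.13 to 2.50 CPM. Syt3, Sv2b, Sv2c, Cplx2 and Sncb were too low to be tested, with no library above 5.52 CPM.

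**Figure D3:**
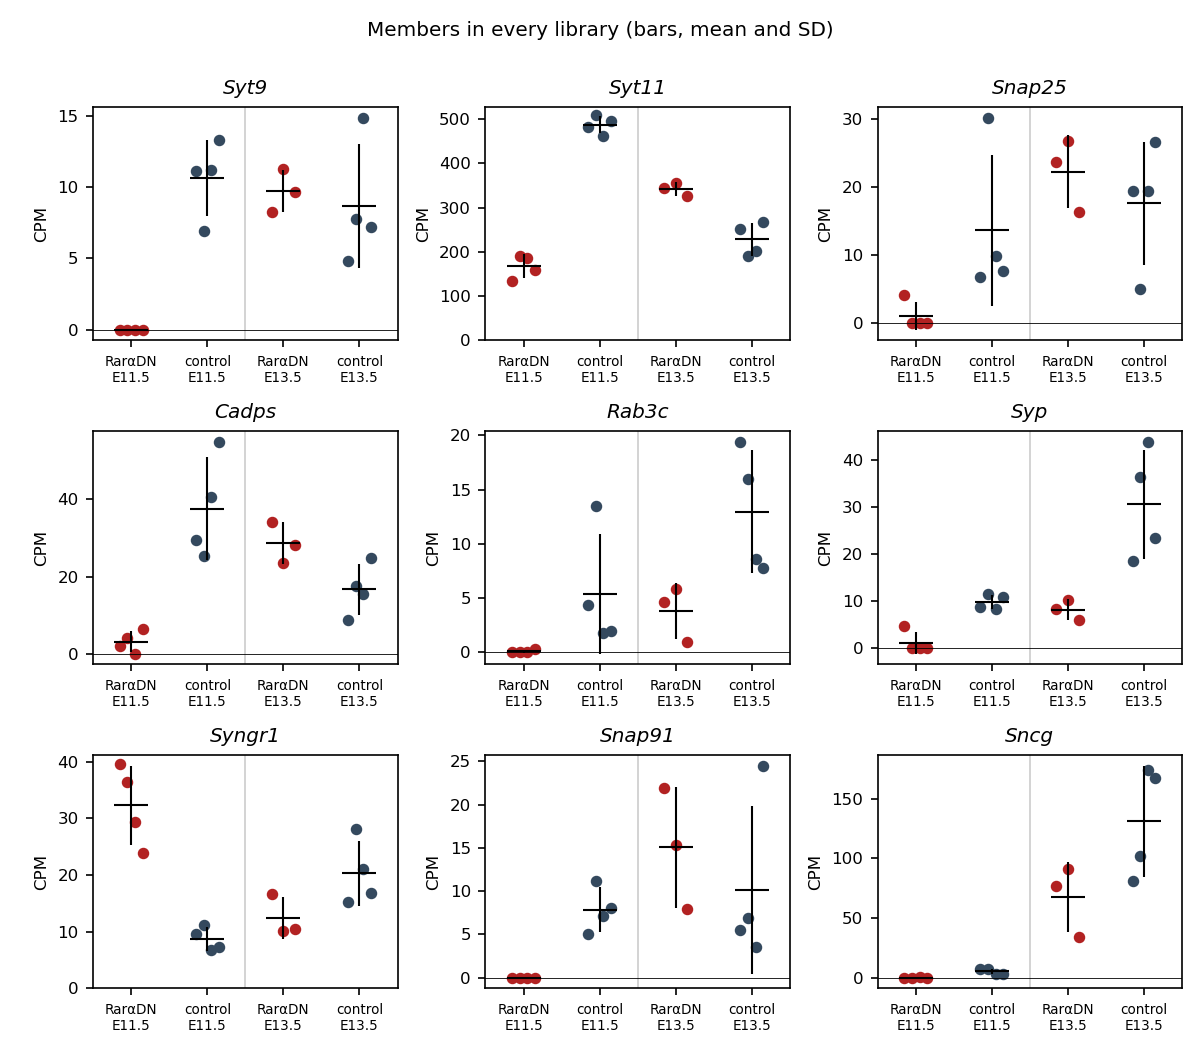
Level of 9 members in every library as CPM (TMM-scaled within each age), with the mean and SD of each group, RarαDN (red) left of control (grey) at each age. Syt9 and Snap91 are at 0 in all 4 E11.5 RarαDN libraries and overlap with control at E13.5, Syt11 lies below control at E11.5 and above it at E13.5, Syngr1 lies above control at E11.5 and overlaps it at E13.5, and Snap25 and Syp are above 0 in only 1 E11.5 RarαDN library.

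An interaction term over all 15 libraries asked whether RarαDN acted unequally at the 2 ages (13412 genes, of which 7.34% had a higher effect at E13.5 and 7.2% a lower one). Of 33 members tested, 11 had a higher effect at E13.5, that is, less of a loss or a gain, and 1 had a lower one. Syt11 differed by 2.07 on the log2 scale (SE 0.22, adjusted p = 1.99e-05), Cadps by 4.20 (SE 0.87, adjusted p = 0.00495) and Sncg by 6.0 (SE 0.92, adjusted p = 0.000582). Syngr1 went the other way, with a difference of -2.65 (SE 0.53, adjusted p = 0.00377). These 4 passed under each of the 25 alternatives, as did Syt6, Syt9, Snap91 and Svop (adjusted p = 0.00867, 0.000156, 0.000566 and 0.00134), whose difference has no fixed size because 1 group had no count. Syn1, Rims2, Rab3c and Rims3 also passed (adjusted p = 0.044, 0.0223, 0.0472 and 0.0465), but of the 25 alternatives only 10 passed for Syn1, 7 for Rab3c and 10 for Rims3 (21 of 24 for Rims2).

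In 5 members every RarαDN library lay below every control library at both ages. The share of all genes that did so at both ages was not counted, so the 5 have no background beside them. Of these 5 members, Svop and Rab3c passed the interaction test and the other 3 did not. Unc13a had a difference of 0.10 on the log2 scale (SE 0.85, adjusted p = 0.965), Cplx1 one of 1.22 (SE 1.57, adjusted p = 0.654) and Syp one of 1.05 (SE 1.43, adjusted p = 0.671). The wide errors leave room for differences in either direction. For Syp the adjusted p was 0.000467 without E11.5 RarαDN library 1 and 0.0449 with limma-voom, so the result for Syp rested on the library in which it was found at E11.5.

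The summed level of the 37 members was 392 ± 27.8 CPM in RarαDN ENCDC and 855 ± 78.8 CPM in control ENCDC at E11.5 (SD, n = 4 each), and the 4 RarαDN libraries, at 366 to 431 CPM, all lay below the control libraries, at 797 to 968 CPM. At E13.5 it was 780 ± 87.7 CPM in RarαDN ENCDC (n = 3) and 828 ± 142 CPM in control ENCDC (n = 4), with overlap. Syt11 alone made up 34.9% to 51.0% of the sum in E11.5 RarαDN libraries and 52.5% to 59.8% in E11.5 control libraries, and at E13.5 it made up 41.7% to 47.9% in RarαDN libraries and 25.3% to 34.4% in control libraries. Without Syt11 the sums were 224 ± 31.3 CPM in RarαDN ENCDC and 367 ± 62.6 CPM in control ENCDC at E11.5, and 438 ± 73.3 and 599 ± 122 CPM in the same groups at E13.5. RarαDN libraries at E11.5 held counts for 18 to 20 members and control libraries for 33 to 35, at E13.5 for 31 to 34 members in both groups. Of all 17090 genes, E11.5 RarαDN libraries held counts for 12510 to 13221 and E11.5 control libraries for 14559 to 14870. The E13.5 RarαDN libraries held 13536 to 13900 and the E13.5 control libraries 12354 to 13050.

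Markers of cell types moved with the groups. At E11.5 the summed enteric neuron markers were 592 to 1219 CPM in RarαDN ENCDC and 3316 to 4276 CPM in control ENCDC, with 6 of 11 markers lower and none at 0 in either group. Stmn2, a neuronal tubulin regulator, had 0.176 ± 0.221 CPM in RarαDN ENCDC and 74.7 ± 61.4 CPM in control ENCDC, and Elavl4, an RNA-binding protein of young neurons, had 41.5 ± 13.3 and 319 ± 90.1 CPM in the same groups. The progenitor or glia markers overlapped at 1228 to 2012 CPM in RarαDN ENCDC and 1253 to 1887 CPM in control ENCDC, with 1 of 7 tested higher and 1 lower. Melanoblast markers summed to 1184 to 2643 CPM in RarαDN ENCDC and 20.6 to 32.6 CPM in control ENCDC, with 4 of 4 tested higher, and leukocyte markers to 33.1 to 188 CPM and 0.0917 to 19.7 CPM, with 2 of 6 tested higher. Endothelial markers summed to 0 to 3.05 CPM in RarαDN ENCDC and 19.4 to 68.7 CPM in control ENCDC, with 2 of 2 tested lower (Kdr at 0.434 ± 0.807 CPM in RarαDN ENCDC and 37.7 ± 21.1 CPM in control ENCDC, Pecam1 at 0 and 80 counts), and Cdh5 had 0 counts in both groups. Mesenchyme or smooth muscle markers overlapped at 173 to 342 CPM in RarαDN ENCDC and 67.8 to 195 CPM in control ENCDC, with 1 of 6 tested higher (Tagln, at 74.5 ± 47.8 CPM and 2.66 ± 0.879 CPM in the same groups). Epithelial and erythroid markers overlapped, and none of 3 and of 4 tested passed (the 4 include Hba-a1 and Hba-a2, which held identical counts). The part of these differences in the members' results was not tested.

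At E13.5 the enteric neuron markers were 3136 to 3966 CPM in RarαDN ENCDC and 4482 to 5286 CPM in control ENCDC, with 3 of 11 lower and 1 higher, and progenitor or glia markers were 1183 to 1379 CPM in RarαDN ENCDC and 404 to 631 CPM in control ENCDC, with 1 of 7 tested higher. Hemoglobin and other erythroid markers reached 754 and 3710 CPM in control libraries 2 and 3, against 0.675 to 74.5 CPM in RarαDN libraries and 19.6 and 52.5 CPM in control libraries 1 and 4. Of the 6 erythroid markers tested 1 was lower. Hba-a1 and Hba-a2 held identical counts, as did Hbb-b1 and Hbb-b2. The erythroid sums therefore count the same reads doubly, and the 6 tested include both genes of each pair. Mesenchyme or smooth muscle markers summed to 44.7 to 101 CPM in RarαDN ENCDC and 130 to 258 CPM in control ENCDC, without overlap and with 2 of 5 tested lower (Col1a2 and Des). The list did not move as 1: Col1a1 lay below control without passing, and Acta2 and Tagln overlapped. Myh11 and Pdgfra, too low to be tested, lay above control, with 49 and 31 counts in RarαDN ENCDC against 2 and 1 in control ENCDC. Endothelial markers overlapped in their sum, with none of 2 tested past the test. Those 2 went opposite ways, each without overlap. Kdr lay above control, at 5.51 to 8.61 CPM in RarαDN ENCDC and 0 to 1.34 CPM in control ENCDC. Pecam1 lay below, at 2.81 to 3.66 and 5.24 to 15.0 CPM in the same groups. Melanoblast markers were at most 6.84 CPM in RarαDN ENCDC and 27.5 CPM in control ENCDC at this age. Beyond the fit without control libraries 2 and 3, their part in the members' results was not tested.

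**Figure D4:**
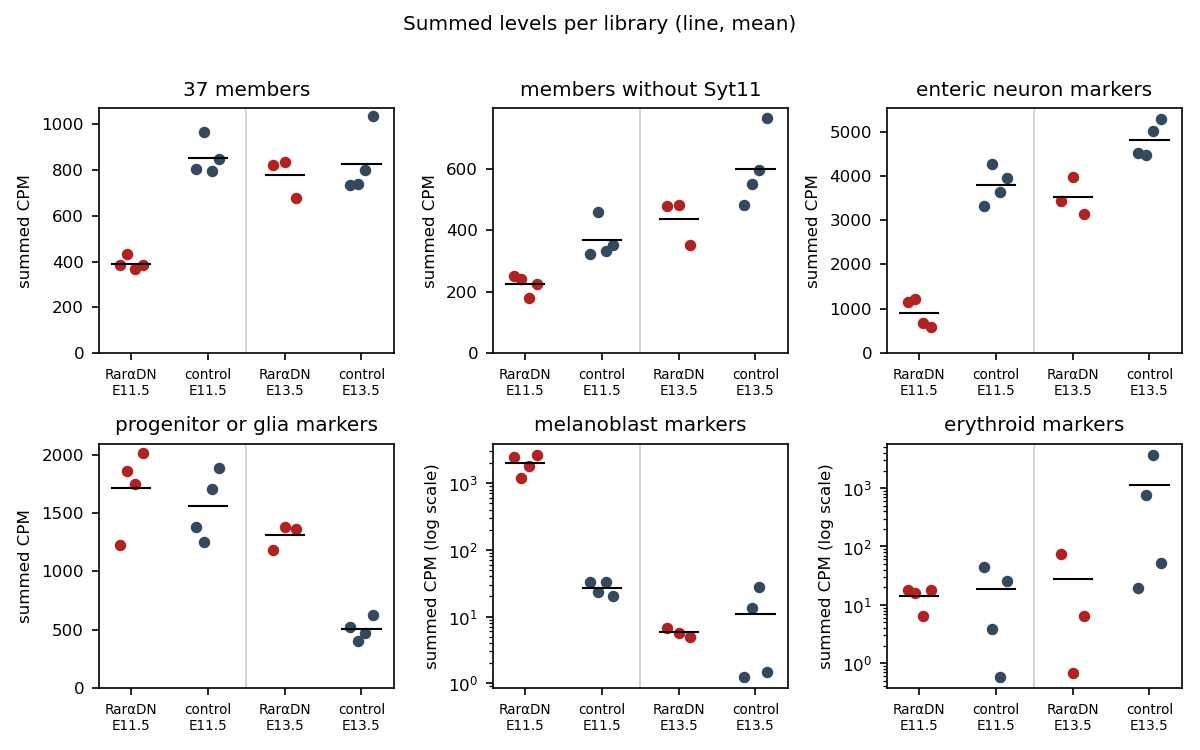
Summed CPM per library of the 37 members, of the members without Syt11 and of 4 marker lists, RarαDN (red) left of control (grey) at each age, with the group mean as a line (log scale for melanoblast and erythroid markers). At E11.5 the members' sums of 366 to 431 CPM in RarαDN libraries lie below the 797 to 968 CPM of control libraries, together with the enteric neuron markers, while melanoblast markers lie above, and at E13.5 the members' sums overlap. The erythroid sums count Hba-a1 beside Hba-a2 and Hbb-b1 beside Hbb-b2, pairs with identical counts.

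Other genes of the vesicle cycle were read from 6 further lists, whose counts stand beside a background of 2.93% of all genes lower and 3.07% higher at E11.5, and of 5.55% and 2.78% at E13.5. Without RarαDN library 1 or 2, no gene of these lists passed at E13.5. In the SNARE core and its cofactors, 1 of 18 tested genes fell at E11.5, a share near the background. The median log2 fold change of that list was 0.03 at E11.5, and none of 18 passed at E13.5.

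In the active zone and Rab effector list, 2 of 17 tested genes fell and 2 rose at E11.5. The 2 lower calls became 0 with the replicate block, and 1 without RarαDN library 4 or control library 1, 3 or 4. The higher calls numbered 2 under every alternative. Pclo (piccolo), a giant scaffold of the active zone, had 0 counts in RarαDN ENCDC and 4.68 ± 2.03 CPM in control ENCDC (SD, n = 4, as for the other E11.5 values here), at least 59.4-fold lower (adjusted p = 0.0108). The 2 that rose, Mlph and Rab27a, are known for carrying melanosomes along actin. Mlph had 22.4 ± 8.73 CPM in RarαDN ENCDC and 0.223 ± 0.214 CPM in control ENCDC (adjusted p = 0.00105), and Rab27a had 18.6 ± 7.96 and 1.68 ± 0.838 CPM (adjusted p = 0.00688). At E13.5, 1 of 15 fell, a share near the background. It was Rabac1, a Rab and VAMP2 binding protein, which fell by 1.30 on the log2 scale (SE 0.21, adjusted p = 0.00911). This call was lost with the length trend removed and without both hemoglobin-rich controls.

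Of the other synaptotagmins and their relatives, 2 of 7 tested fell and 1 rose at E11.5, and 1 of 8 fell at E13.5. Syt5, a calcium sensor of dense core vesicles, had 0 counts in RarαDN ENCDC and 2.68 ± 2.38 CPM in control ENCDC at E11.5 (at least 34.03-fold lower, adjusted p = 0.0257), and 5.78 ± 0.682 CPM (n = 3) and 27.3 ± 5.24 CPM (n = 4) at E13.5 (log2 fold change -2.24, SE 0.37, adjusted p = 0.00929). It was thus lower in RarαDN ENCDC at both ages, but neither call was stable. The 2 lower calls of this list at E11.5 became 0 without control library 1, 3 or 4 and with the replicate block. The 1 at E13.5 became 0 with all 4 groups in 1 fit, without both hemoglobin-rich controls, and without RarαDN library 1 or 2. Syt17 fell at E11.5 (adjusted p = 0.0255). Sytl2, a Rab27 effector that anchors melanosomes, had 16.95 ± 5.71 CPM in RarαDN ENCDC and 0.138 ± 0.275 CPM in control ENCDC at E11.5 (adjusted p = 0.00576).

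Of other vesicle membrane proteins, 3 of 11 tested fell and 1 rose at E11.5, and none of 11 passed at E13.5. The 1 that rose became 0 without the low-count filter, with the replicate block, without RarαDN library 2, 3 or 4, and without control library 1, 3 or 4. The 3 that fell became 2 with the replicate block and without control library 1, 2 or 3. Slc18a3, the vesicular acetylcholine transporter, had 0 counts in RarαDN ENCDC and 13.9 ± 7.99 CPM in control ENCDC (at least 176-fold lower, adjusted p = 0.00278). Slc18a2, the vesicular monoamine transporter, had 15.5 ± 10.2 CPM in RarαDN ENCDC and 137 ± 18.6 CPM in control ENCDC (log2 fold change -3.14, SE 0.44, adjusted p = 0.00228).

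Of the proton pump that acidifies vesicles and lysosomes, none of 18 subunits passed at E11.5 and 5 of 18 were lower at E13.5. The 5 became 0 with the length trend removed, 1 without both hemoglobin-rich controls, 2 with all 4 groups in 1 fit, and 0, 0 and 2 without RarαDN library 1, 2 or 3. Among them Atp6v1f had 132 ± 7.42 CPM in RarαDN ENCDC and 330 ± 92.8 CPM in control ENCDC (log2 fold change -1.33, SE 0.21, adjusted p = 0.00886), and Atp6v0b and Atp6v0e fell by 0.93 and 0.95. In the list of vesicle endocytosis, 1 of 23 fell at E11.5, a share near the background, and 3 of 23 at E13.5. The 1 was lost without RarαDN library 3 or 4 or any 1 control library, and the 3 became 0 with the length trend removed, without both hemoglobin-rich controls, or without any 1 RarαDN library. Sh3gl3, an endophilin that curves membrane, was lower at both ages (log2 fold change -1.98, SE 0.49, adjusted p = 0.0363 at E11.5, and -0.83, SE 0.23, adjusted p = 0.0497 at E13.5), and the adaptor and clathrin subunits Ap2s1 and Clta fell at E13.5 by 0.85 and 0.55. The medians of these 2 lists were 0.18 and 0.0039 at E11.5 and -0.36 and -0.0027 at E13.5, beside -0.05 and 0.06 for all genes tested.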

How the data were processed

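ENCDC were sorted from single organs, and libraries were made from SMART-amplified cDNA with Nextera XT. Each sample was sequenced in 2 runs that the authors combined. After removal of repeat and ribosomal RNA reads, the authors mapped the rest with RUM and deposited raw counts for each RefSeq transcript. For the RUM version, genome build and annotation the sources used here give nothing. Besides counts, the table also holds quantile-normalized log2 values and comparisons made by the authors (log2 fold changes and adjusted P values), and neither was used. No kit or step named marks the strand.

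A single transcript per gene, the one marked best in the table by a rule the sources do not give, represented each of the 37 members (11 have several transcripts). Syt2 and Sncb share identical counts with another gene. TMM scaling, the filterByExpr filter and the robust quasi-likelihood test of edgeR 4.0.16 (R 4.3.3) were applied in 1 fit per age, with Benjamini-Hochberg adjustment over all genes tested and a threshold of 0.05. An SE is the fold change on the log2 scale over the root of F. Because CPM were scaled within an age, levels are compared only within it. A fold against a group at 0 is a bound against 3 counts over the group, and the interval of a fold with 1 to 3 counts is exact binomial at 95%. Library totals were 6065029 to 12121327 counts. The steps were tested on simulated counts.

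As alternatives, scaling was changed to RLE or left out, the low-count filter was dropped or set to 1 CPM throughout a group, and DESeq2 1.42.0, limma-voom (limma 3.58.1), a fit without the robust step, the transcript of largest total, all 4 groups in 1 fit and a replicate block were tried, as was leaving out each library in turn. Removal of the trend with transcript length (known for 97.8% of genes) and the fit without both hemoglobin-rich E13.5 control libraries were chosen after seeing the data.

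The members and lists were chosen with earlier results of these data known. Members that passed at either age or in the interaction are given in every library at the age of the call, as are some that did not, chosen after their values were seen. From each further list at most the 3 members of lowest adjusted p at each age are named, among those that passed. Some genes of these lists count in the totals but are not reported here by name. Libraries came from separate embryos. Same-numbered libraries did not clearly deviate together, so numbers were not used as pairs in the main fits.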

Additional observations from a re-analysis of the deposited data

Results flagged for a closer look

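In groups of 4 libraries, a library was marked when its gap to the nearest other library made up nearly all of the group's range (above Dixon's critical value). Of 98 groups examined, 23 were marked. For normally distributed values chance marks about 1 in 20 groups, or 4.9 here. Where all libraries but 1 are at 0, the gap is the whole range and the mark is fixed, even at 1 count. The 23 therefore cannot be set against the 4.9. Among E11.5 RarαDN libraries, library 1 stood high for Syn2 (2.82 CPM), Snap25 (4.04 CPM), Rab3b (31.5 CPM) and Syp (4.69 CPM). Library 2 stood high for Syt3 (4.68 CPM), Cplx1 (3.23 CPM) and Syngr3 (7.43 CPM), and library 3 for Vamp1 (2.91 CPM) and Sncg (0.153 CPM, 1 count). Library 4 stood out for Syt13 (0.117 CPM) and Rab3c (0.235 CPM), at 1 and 2 counts. Among E11.5 control libraries, library 2 stood high for Snap25 (30.2 CPM), Rab3b (31.5 CPM) and Sv2b (0.566 CPM), library 3 for Syt2 (0.115 CPM), and library 4 for Rab3d (13.9 CPM) and Sncb (0.0917 CPM). Among E13.5 control libraries, library 4 stood high for Snap91 (24.5 CPM), Vamp1 (13.9 CPM), Sv2b (4.88 CPM), Syngr3 (75.5 CPM) and Sncb (0.122 CPM), and library 1 stood low for Vamp2 (18.9 CPM).

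The fitted effect at E13.5 minus that at E11.5, on the log2 scale, differed from 0 in edgeR's interaction test for 12 members. It was 2.07 for Syt11, 4.20 for Cadps, 4.63 for Rims3, 4.46 for Rab3c and 6.0 for Sncg, and -2.65 for Syngr1. For the members with no count in E11.5 RarαDN ENCDC it was 6.5 for Syt6, 9.63 for Syt9, 5.79 for Syn1, 9.63 for Snap91, 6.67 for Svop and 7.33 for Rims2, sizes that depend on the prior count of the fit.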

How the results depend on the processing

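The 9 members lower at E11.5 numbered between 9 and 13 under the alternatives other than the block and leaving out libraries, and between 4 and 14 when each library was left out in turn. The 1 member higher at E11.5 numbered 1 throughout. The 1 member lower at E13.5 numbered 5 with DESeq2, 0 with all 4 groups in 1 fit, 0 with the length trend removed, 0 without both hemoglobin-rich controls and 0 to 2 with libraries left out. The 1 member higher at E13.5 numbered 0 in the same 3 fits other than DESeq2, where it was 1, and 0 to 1 with libraries left out. The 12 members whose effect differed between ages numbered between 8 and 13 with libraries left out. The deviations of same-numbered libraries correlated with r of 0.24, -0.20, 0.07 and 0.10 among E11.5 pairs, and of 0.04, 0.04 and 0.05 among E13.5 pairs. Differently numbered pairs ranged from -0.34 to 0.29 at E11.5 and from -0.10 to 0.11 at E13.5. The numbers thus gave no sign of pairs, but so few libraries cannot exclude a pairing. With the replicate block, 3 members (Syt9, Syt11 and Cadps) were lower at E11.5, and none (0) at the later age. The E13.5 log2 fold changes of Syt9 and Syngr1, which had not passed, changed sign. Syt9 ranged between -0.034 (without control library 1) and 0.56 (without control library 3) with libraries left out and was -0.18 with the length trend removed, and Syngr1 was 0.10 with the length trend removed. The cause was not tested.

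Syt11 at E11.5 rests on 6373 counts in RarαDN ENCDC and 19208 in control ENCDC, but most other members rest on far fewer. A member with 0 counts is not shown to be absent from the cells. With 3 or 4 libraries a group, and amplified cDNA in which a low transcript can appear in 1 library only, a p that misses the threshold does not show that groups were alike. Counts per transcript were not checked against reads.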
